A study of Mus musculus with 6 samples.

Results

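The genes that carry the TGFb signal into the cell were followed in mouse primary myoblasts, the mononucleated precursor cells of skeletal muscle fibres. They are the ligands Tgfb1, Tgfb2 and Tgfb3, the receptors Tgfbr1, Tgfbr2 and Acvrl1, the co-receptors Tgfbr3 and Eng, and the receptor-activated SMADs Smad2 and Smad3. The members were taken by gene name from the arrays' own annotation. All 10 were on the arrays, with 14 of the 55681 probes, and all 10 were bright enough to be tested among 21960 genes.

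TGFb is secreted as a latent complex and becomes active when the growth factor is freed from its own propeptide. The active dimer is bound by the type II receptor TGFBR2, which recruits and phosphorylates the type I receptor TGFBR1 (ALK5) or, in some cells, ACVRL1 (ALK1). TGFBR1 then phosphorylates SMAD2 and SMAD3, which enter the nucleus with SMAD4 and regulate transcription, while ACVRL1 signals through SMAD1 and SMAD5. In skeletal muscle the pathway is known for restraining myogenic differentiation and for its part in fibrosis.

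The study compared 3 arrays of myoblasts exposed to TGFb for 4 days with 3 arrays of untreated myoblasts. All came from skeletal muscle of male C57BL/6 mice aged 3 months, were purified by flow cytometry and were grown in medium with serum. The labels name neither the TGFb isoform, the dose nor the sorting gate, and they call the replicates independent experiments. Each value below is a log2 level, the log2 of the processed Cy3 intensity minus the 75th percentile of the array, so 0 marks the brightness of that percentile. Probes bind with different strength, so levels are compared between arrays for a probe and never between probes.

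The 75th percentile lay between 948 and 1352 intensity units on the TGFb arrays and between 876 and 1569 on the untreated arrays, and on each array 50.6% to 55.8% of its probes stood well above background. The number of arrays, 3 in each group, limits the precision. TGFb 1, untreated 1 and untreated 2 were scanned on day 1, and TGFb 2, TGFb 3 and untreated 3 on day 2. The first principal component, with 72.4% of the variance, separated the scan days. Untreated 1 and 2 stood closer together than any other pair. Their log2 levels differed with an SD of 0.15 over 13152 bright probes, against 0.52 for TGFb 2 and 3, which also shared a group and a scan day. The labels give them separate replicate numbers, but both carry the number 2 in their scanner file names. Whether they came from separate cultures was not tested. If they did not, the untreated group holds 2 independent samples, which the averaged fit takes into account. Because each scan day held both groups in unequal numbers, the groups were compared with limma in a fit with scan day as a term, and each member's call is given beside the fit that averages untreated 1 and 2 into 1 sample and the fit with no scan day term. P-values were adjusted over all genes by the Benjamini-Hochberg method, with a threshold of 0.05.

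Pax7 and Myod1, the transcription factors that mark muscle stem cells and myoblasts, were well above background on all 6 arrays, as was the muscle intermediate filament gene Des. Pax7 differed by -0.02 ± 0.14 (log2, SE) and Myod1 by -0.53 ± 0.15 between TGFb and untreated cells, neither past the threshold (limma adjusted p 0.942 and 0.0949). Des was lower in TGFb cells, at -1.28 ± 0.16 (limma adjusted p 0.0101). Myf5, also on the myoblast list, was well above background on 1 array and was not tested. Myog and Chrna1 were bright, at log2 levels of 7.21 to 7.87 and 7.65 to 8.48. They differed by -0.51 and -0.04 (limma adjusted p 0.128 and 0.895). Of 12 tested myoblast markers Des was the 1 called lower and 3 were called higher, against 5.54% and 4.6% of all tested genes. The higher ones were Ncam1 at 1.29, Pax3 at 0.88 and Met at 0.77 (limma adjusted p 0.0106, 0.0219 and 0.0354). Myf5, Myog, Chrna1, Ncam1, Pax3 and Met were named after their values were seen. In either of the other fits 0 of the 12 passed. Ptprc, the pan-leukocyte marker, was well above background on 1 array, but it does not stand for the macrophage list. Of its 12 genes 6 were bright enough to be tested. Itgam, at log2 levels of 3.95 to 6.87, Csf1r, Fcer1g and Cd14 cleared background well on each of the 6 arrays. C1qa, Cd68 and Lyz2 did so on 0 arrays. These macrophage genes were named after their values were seen. Pdgfra, a marker of fibroblast-like cells, differed by -0.32 (limma adjusted p 0.625). Dcn and Osr1, also markers of fibroblast-like cells, were called lower, at -2.57 and -0.99 (limma adjusted p 0.0164 and 0.0280). They were not called with untreated 1 and 2 averaged (limma adjusted p 0.0652 and 0.117) or with no scan day term (limma adjusted p 0.125 and 0.208). Of the same list, Ly6a differed by -0.69 and Col3a1, at log2 levels of 5.25 to 6.68, by -0.03 (limma adjusted p 0.0726 and 0.964). Cd34, Gsn, Tcf21 and Pi16 went the other way, at 0.58, 0.52, 0.47 and 0.24. Those genes did not pass (limma adjusted p 0.101, 0.352, 0.722 and 0.568). The tested genes of this list other than Pdgfra were picked with their values already known.

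The probes of Tgfb1 and Tgfb2 are shown because they read related stretches of related genes. Both lie in the stretch that encodes the mature growth factor, where the ligands are most alike. The Tgfb1 probe maps to chr7:26489877-26489936 (mm9, plus strand) and the Tgfb2 probe to chr1:188449333-188449392 (mm9, minus strand). Set side by side without gaps they share 41 positions, of which 28 match and 13 differ, an identity of 68.3%, and capitals mark the bases that differ.
Tgfb1: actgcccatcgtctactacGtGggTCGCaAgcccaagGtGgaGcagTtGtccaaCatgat
Tgfb2: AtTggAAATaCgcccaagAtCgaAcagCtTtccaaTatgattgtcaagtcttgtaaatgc

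In the fit with scan day, 3 of the 10 members passed the threshold. Tgfbr2 and Acvrl1 were higher in TGFb-treated cells and Smad3 was lower, while 10.1% of all tested genes passed (4.6% higher and 5.54% lower). In the fit that averaged untreated 1 and 2, 0 members and 3.07% of genes passed (1.47% higher and 1.6% lower), and in the fit with no scan day term 0 members and 1.4% of genes did (0.697% higher and 0.701% lower). At an unadjusted p under 0.05 the counts of members were 5 with scan day, against 27.1% of all genes, 4 with the averaged pair, against 18.7%, and 3 with no scan day term, against 11.5%. For the 3 members that passed with scan day, the size of the difference moved little when the pair was averaged, and the p-values were higher. With the pair averaged, Tgfb1, Tgfb2 and Tgfbr1 differed by 0.73, -0.28 and -0.26 (limma adjusted p 0.327, 0.539 and 0.646). Tgfbr3, Eng and Smad2 differed by -0.68, -0.46 and -0.09 in that fit (limma adjusted p 0.271, 0.586 and 0.859). Within both scan days the difference had the same sign for 9 of 10 members, against 67.9% of all genes. The groups did not overlap, with TGFb arrays higher, for 2 members, against 8.44% of all genes, and with TGFb arrays lower for 1 member, against 9.52% of all genes. In RNA from whole cultures, fewer cells of a type and less RNA per cell cannot be told apart.

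The promoters of Tgfbr2 and Smad3 are shown because both genes passed in opposite directions. The sequences are from RefSeq (GRCm38.p6) and cover the 250 bases before the start of each gene, read on the strand of the gene. Capitals mark CAGAC on either strand, the short element that SMAD3 and SMAD4 can bind.
Tgfbr2 promoter, chr9:116175364-116175613, minus strand: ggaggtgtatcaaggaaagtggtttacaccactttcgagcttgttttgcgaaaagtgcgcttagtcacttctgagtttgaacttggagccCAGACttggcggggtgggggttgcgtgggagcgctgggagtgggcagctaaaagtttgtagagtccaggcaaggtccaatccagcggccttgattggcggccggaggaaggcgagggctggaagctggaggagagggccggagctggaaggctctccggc
Smad3 promoter, chr9:63757995-63758244, minus strand: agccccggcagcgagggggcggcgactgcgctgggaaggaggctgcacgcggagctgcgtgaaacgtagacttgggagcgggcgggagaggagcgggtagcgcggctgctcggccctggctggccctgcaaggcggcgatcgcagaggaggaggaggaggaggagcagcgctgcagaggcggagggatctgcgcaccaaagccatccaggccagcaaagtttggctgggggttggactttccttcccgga

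CAGAC occurred 1 time in the Tgfbr2 window and 0 times in the Smad3 window, and 42.2% of 32851 promoter windows of this length held it. The GC box CCGCCC, searched on both strands, occurred 2 times in the Smad3 window and 0 times in the Tgfbr2 window, against 32.7% of all windows with it. The SMAD palindrome GTCTAGAC, the AP-1 site TGANTCA and the cyclic AMP element TGACGTCA were in neither window, and 0.167%, 6.75% and 1.55% of all windows held them. These matches describe letters in a window and are not evidence of binding.

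**Figure D1:**
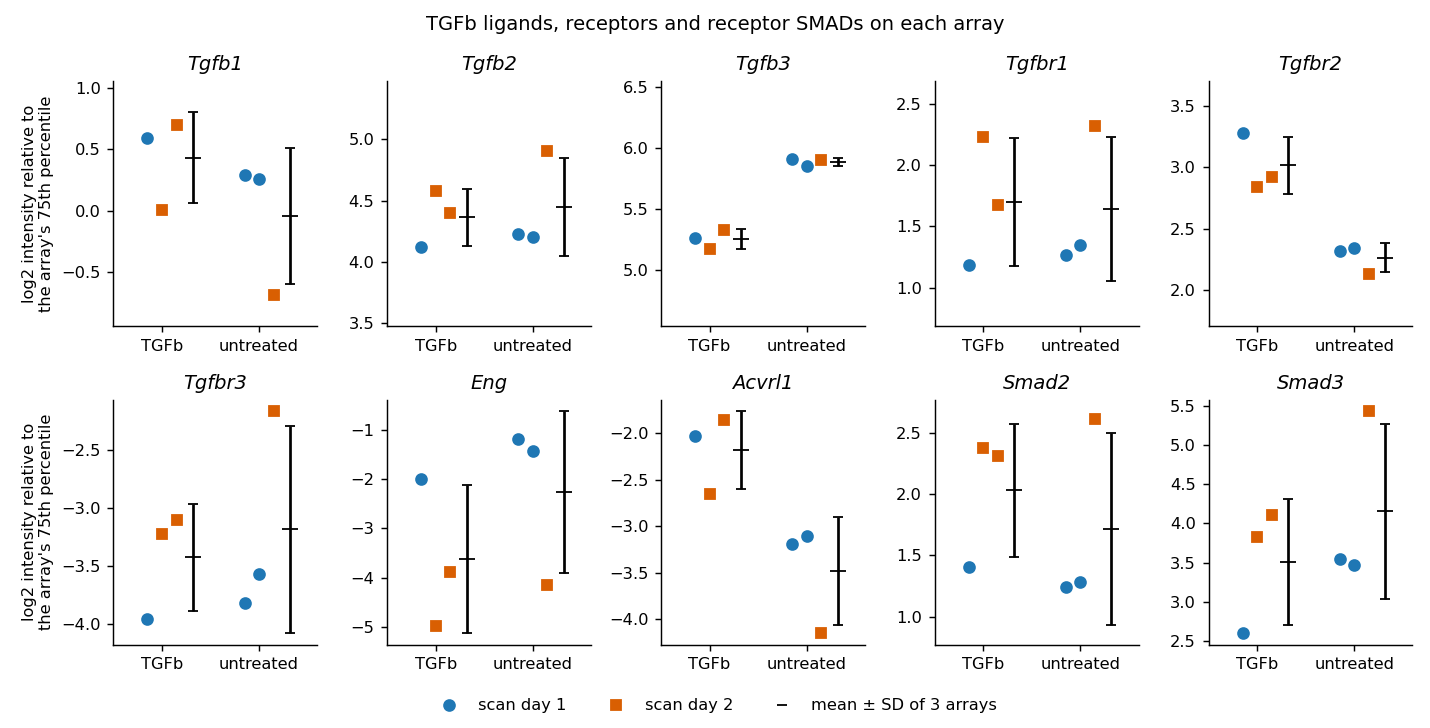
Log2 level (log2 intensity relative to the array's 75th percentile) of the 10 members on each array, with TGFb arrays left of untreated arrays, the scan day by symbol, and the mean ± SD of 3 arrays beside the points. The groups stand apart for Tgfb3, Tgfbr2 and Acvrl1, and the points of Eng, Smad2 and Smad3 lie further apart by scan day than by group.

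Among the ligands, Tgfb3 varied least between the arrays of a group. This isoform is made by many mesenchymal cells, and its probe, at chr12:87397804-87397863 (mm9, minus strand), is printed 10 times on each array. Its log2 level was 5.26, 5.17 and 5.33 in TGFb 1, 2 and 3, against 5.91, 5.85 and 5.90 in untreated 1, 2 and 3. Every TGFb array lay below every untreated array, on both scan days. The brightest single spot on a TGFb array, at 5.38, was below the dimmest on an untreated array, at 5.82, and the SD among the spots of an array was 0.03 to 0.05. The difference was -0.63 ± 0.14 (log2, SE), with a 95% interval from -0.98 to -0.28, and its limma adjusted p of 0.0507 lay just outside the threshold. It was -0.62 within day 1 and -0.65 within day 2. With untreated 1 and 2 averaged it was -0.64 (limma adjusted p 0.207), and with no scan day term -0.63 (limma adjusted p 0.369). With TGFb 3 left out it passed, at -0.67 (limma adjusted p 0.0374).

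The ligand Tgfb1, the isoform most studied in fibrosis, was also read by a probe printed 10 times. Its log2 level was 0.59, 0.01 and 0.70 in TGFb 1, 2 and 3, against 0.29, 0.26 and -0.69 in untreated 1, 2 and 3. The groups overlapped, since TGFb 2 lay below untreated 1 and 2. The difference was 0.68 ± 0.27 (log2, SE), with a 95% interval from -0.01 to 1.37 (limma adjusted p 0.191), and it was 0.32 within day 1 and 1.04 within day 2. With no scan day term it was 0.48 (limma adjusted p 0.726). Spots of the same array differed by an SD of 0.05 to 0.11, so the spread between arrays of a group exceeded that between spots.

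Tgfb2, which needs the co-receptor TGFBR3 for high-affinity binding, was read by a pair of probes. The probe shown above gave 4.12, 4.58 and 4.40 in TGFb 1, 2 and 3, against 4.23, 4.20 and 4.91 in untreated 1, 2 and 3. The groups overlapped, and untreated 3 was the highest array. The difference was -0.26 ± 0.16 (log2, SE; 95% interval -0.65 to 0.14; limma adjusted p 0.352), and -0.08 with no scan day term (limma adjusted p 0.929). It was -0.10 within day 1, also the value without untreated 3, and -0.42 within day 2, also the value without TGFb 1. The other probe, at chr1:188447534-188447593 (mm9), gave 2.55, 4.11 and 3.93 in TGFb 1, 2 and 3, against 2.51, 2.60 and 5.09 in untreated 1, 2 and 3. There the day 2 arrays were higher than the day 1 arrays by 2.00 on the log2 scale, against 0.53 for the first probe, and the difference between groups was -0.53 (probe-level limma adjusted p 0.293).

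The type II receptor gene Tgfbr2, whose protein binds the ligand first, was higher in TGFb-treated cells in the fit with scan day. Its brighter probe, at chr9:115997155-115997214 (mm9, minus strand), gave 3.28, 2.84 and 2.92 in TGFb 1, 2 and 3, against 2.32, 2.34 and 2.13 in untreated 1, 2 and 3. All TGFb arrays lay above all untreated arrays. The difference was 0.85 ± 0.14 (log2, SE), a fold of 1.81, with a 95% interval from 0.50 to 1.21 (limma adjusted p 0.0225). Day 1 alone gave 0.95 and day 2 alone 0.76. The difference was 0.84 with untreated 1 and 2 averaged (limma adjusted p 0.131) and 0.75 with no scan day term (limma adjusted p 0.325). Scaled to each array's median it was 0.66 (limma adjusted p 0.205), a scaling that moved the median difference of all genes to -0.15 against 0.04. Leaving out single arrays kept it between 0.76 and 0.95, and it missed the threshold without TGFb 1 (limma adjusted p 0.119) and without untreated 1, 2 or 3 (limma adjusted p 0.130, 0.135 and 0.117).

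The second Tgfbr2 probe, at chr9:115999496-115999555 (mm9), lay 2341 bases nearer to the 5′ end of the transcript and was dim. It gave -2.24, -3.38 and -3.78 in TGFb 1, 2 and 3, against -2.37, -2.65 and -4.34 in untreated 1, 2 and 3. These groups overlapped, and the day 1 arrays were the higher ones. Its difference was 0.52 (probe-level limma adjusted p 0.217), 0.27 on day 1 alone and 0.77 on day 2 alone, and it was -0.01 with no scan day term. The brighter and the dimmer probe thus had the same sign within each day, and the dimmer one did not pass.

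Acvrl1 encodes ALK1, a type I receptor best known from endothelial cells, which also takes BMP9 and BMP10 as ligands, and it was higher in TGFb-treated cells in the fit with scan day. Its probe, at chr15:100974010-100974069 (mm9, plus strand), gave -2.02, -2.65 and -1.85 in TGFb 1, 2 and 3, against -3.19, -3.10 and -4.15 in untreated 1, 2 and 3. All TGFb arrays lay above all untreated arrays, and all 6 were well above background. In intensity units these were 233, 189 and 374 in TGFb cells, against 95.8, 116 and 88.1 in untreated cells. The difference was 1.51 ± 0.30 (log2, SE), a fold of 2.85, with a 95% interval from 0.75 to 2.27 (limma adjusted p 0.0389). Day 1 alone gave 1.12 and day 2 alone 1.90. The size depended on the processing: the difference was 1.06 with normexp (limma adjusted p 0.0264) and 0.93 in the authors' deposited table (limma adjusted p 0.0224).

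The Acvrl1 difference was 1.57 with untreated 1 and 2 averaged (limma adjusted p 0.114) and 1.31 with no scan day term (limma adjusted p 0.268). With single arrays left out it stayed between 1.12 and 1.90 and passed only without TGFb 3 (limma adjusted p 0.0158). It missed the threshold without TGFb 1 or 2 (limma adjusted p 0.0896 and 0.0648) and without untreated 1, 2 or 3 (limma adjusted p 0.121, 0.111 and 0.275).

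Endothelial markers were read beside Acvrl1, since endothelial cells are the type in which it is best known. Of 12 such markers 5 were tested, 0 were called higher, and Vwf, which encodes von Willebrand factor, was called lower, at -1.30 (limma adjusted p 0.0064). Vwf missed the threshold with untreated 1 and 2 averaged (limma adjusted p 0.0523) and with no scan day term (limma adjusted p 0.107), and 0 endothelial markers passed in those fits. The 7 that were not tested, among them Tek, Tie1, Flt1 and Cldn5, were not well above background on any array. The summed level of the tested markers, in multiples of the 75th percentile of the array, was 5.36 to 6.79 in TGFb cells and 8.33 to 8.87 in untreated cells. Bright probes weigh most in this sum, which mainly follows Egfl7 and, on the day 1 arrays, Kdr. It does not describe the markers as a set. Pecam1 differed by 0.60 (limma adjusted p 0.285), Kdr by 0.28 (limma adjusted p 0.405), Egfl7 by -0.56 (limma adjusted p 0.0839) and Cdh5, well above background on 3 arrays, by -0.59 (limma adjusted p 0.628). Vwf and Egfl7 were named after their values were seen.

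Tgfbr1 encodes ALK5, the type I receptor that phosphorylates SMAD2 and SMAD3. Its brighter probe, at chr4:47427736-47427795 (mm9, plus strand), gave 1.19, 2.23 and 1.67 in TGFb 1, 2 and 3, against 1.26, 1.34 and 2.32 in untreated 1, 2 and 3. The groups overlapped, and the day 2 arrays were the higher ones in both groups. The difference was -0.24 ± 0.21 (log2, SE), with a 95% interval from -0.76 to 0.28 (limma adjusted p 0.502), and 0.05 with no scan day term (limma adjusted p 0.967). Its other probe was dim, at -4.68, -3.81 and -4.20 in TGFb 1, 2 and 3, against -3.90, -3.96 and -4.37 in untreated 1, 2 and 3, and the signs of its difference were opposite within day 1 (-0.75) and day 2 (0.37).

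The co-receptors present ligand to the signalling receptors and have no kinase of their own. Tgfbr3, or betaglycan, gave -3.95, -3.22 and -3.11 in TGFb 1, 2 and 3, against -3.82, -3.57 and -2.16 in untreated 1, 2 and 3. The groups overlapped, with untreated 3 the highest array. The difference was -0.63 ± 0.22 (log2, SE; 95% interval -1.18 to -0.07; limma adjusted p 0.147), and it was -0.25 within day 1 and -0.999 within day 2. With no scan day term it was -0.24 (limma adjusted p 0.869).

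Eng encodes endoglin, which works with ALK1. It gave -2.00, -4.99 and -3.88 in TGFb 1, 2 and 3, against -1.18, -1.43 and -4.15 in untreated 1, 2 and 3. The groups overlapped, and the 3 arrays of day 1 were all above the 3 arrays of day 2. The difference was -0.49 ± 0.34 (log2, SE; 95% interval -1.35 to 0.37; limma adjusted p 0.413) with scan day and -1.37 with no scan day term (limma adjusted p 0.716). It passed only without TGFb 3, at -0.76 (limma adjusted p 0.0417).

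**Figure D2:**
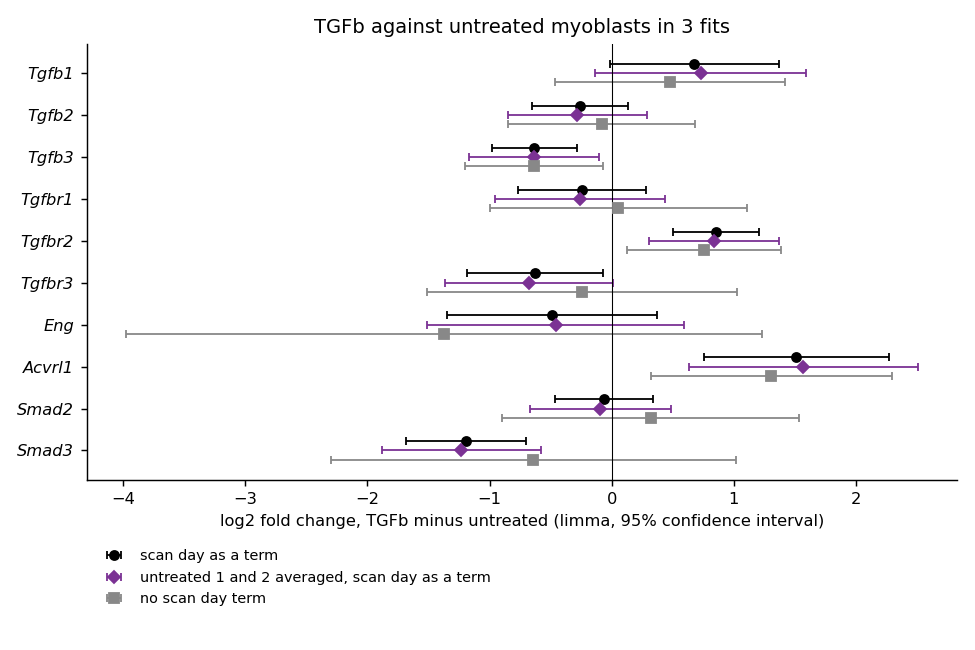
Log2 fold change of each member, TGFb minus untreated, with its 95% confidence interval from limma in the fit with scan day, the fit with untreated 1 and 2 averaged, and the fit with no scan day term. The points of the first and second fit lie close together, and the interval of Eng in the third reaches from -3.97 to 1.23.

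Smad3, the DNA-binding SMAD downstream of TGFBR1, was lower in TGFb-treated cells in the fit with scan day. Its brighter probe, at chr9:63494574-63494633 (mm9, minus strand), gave 2.60, 3.83 and 4.11 in TGFb 1, 2 and 3, against 3.55, 3.47 and 5.44 in untreated 1, 2 and 3. The groups overlapped, but within each scan day every TGFb array lay below every untreated array. The difference was -1.19 ± 0.19 (log2, SE), a fold of 2.28 lower, with a 95% interval from -1.68 to -0.70 (limma adjusted p 0.0222). Day 1 alone gave -0.91 and day 2 alone -1.47. It was -1.23 with untreated 1 and 2 averaged (limma adjusted p 0.0905) and -0.64 with no scan day term (limma adjusted p 0.772). It passed without TGFb 2 or 3 (limma adjusted p 0.0408 and 0.0339) and missed the threshold without TGFb 1 (limma adjusted p 0.0586) or without untreated 1, 2 or 3 (limma adjusted p 0.0966, 0.0882 and 0.166).

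The second Smad3 probe, at chr9:63497492-63497551 (mm9, minus strand), lies 2918 bases nearer to the 5′ end of the transcript. It gave -4.69, -5.08 and -5.33 in TGFb 1, 2 and 3, against -3.17, -3.11 and -2.87 in untreated 1, 2 and 3. All TGFb arrays lay below all untreated arrays, on both days. In intensity units it read 36.7, 35.2 and 33.6 in TGFb cells, against 97.1, 115 and 215 in untreated cells, and on TGFb 3 it was not well above background. With every probe tested on its own, the difference was -1.94 ± 0.23 (log2, SE; limma adjusted p 0.0107), where 4.63% of probes passed lower. The TGFb arrays were close to background here, so the size of this difference is uncertain.

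That probe also passed with no scan day term, at -1.98 (limma adjusted p 0.0447), where 0.514% of probes passed lower. With untreated 1 and 2 averaged it was -2.00 and missed the threshold (limma adjusted p 0.0540), where 0.885% of probes passed lower. Leaving out single arrays kept it between -2.34 and -1.55, and it missed the threshold without untreated 1, 2 or 3 (limma adjusted p 0.0509, 0.0593 and 0.0869). Both Smad3 probes were thus lower in TGFb cells on both scan days.

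Smad2, which shares most of its activation with SMAD3 but whose common form does not bind DNA directly, had a single probe. It gave 1.41, 2.38 and 2.31 in TGFb 1, 2 and 3, against 1.24, 1.28 and 2.62 in untreated 1, 2 and 3. The groups overlapped and the levels went with scan day. The difference was -0.06 ± 0.16 (log2, SE), with a 95% interval from -0.47 to 0.34 (limma adjusted p 0.843) and 0.32 with no scan day term (limma adjusted p 0.822). The interval holds changes in either direction. Its sign turned to 0.15 within day 1 and was -0.27 within day 2.

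**Figure D3:**
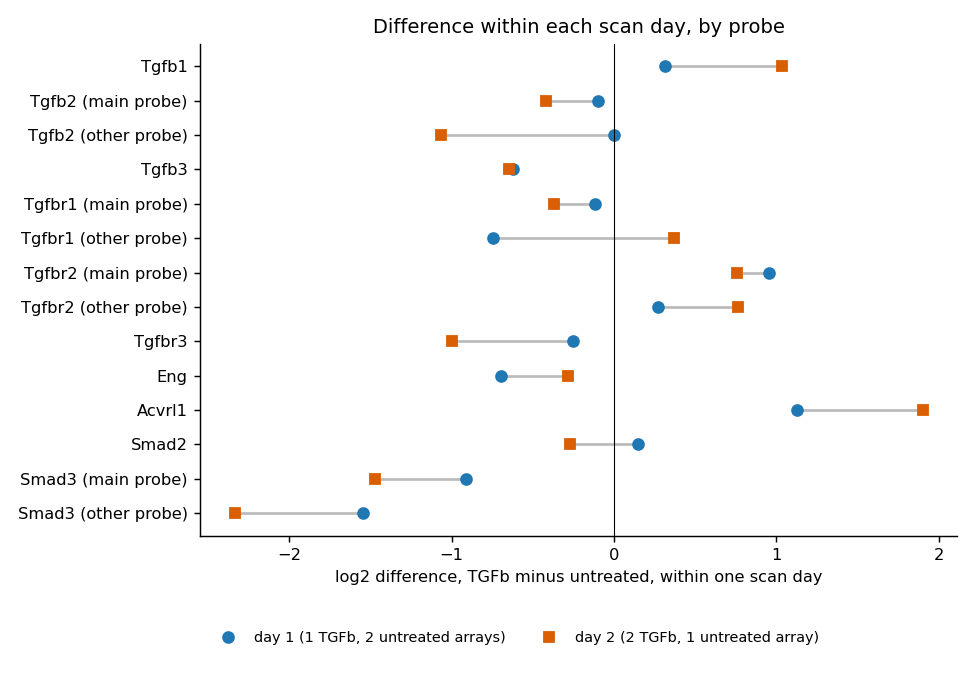
Log2 difference, TGFb minus untreated, within scan day 1 (1 TGFb array, 2 untreated arrays) and within scan day 2 (2 TGFb arrays, 1 untreated array) for the 14 member probes. Both points lie on the same side of 0 for Tgfb3, Tgfbr2, Acvrl1 and Smad3, and on opposite sides for Smad2 and the second Tgfbr1 probe.

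Several members differed more between scan days than between the groups. Among the representing probes, those of Eng (-2.64, day 2 minus day 1), Smad3 (1.65), Tgfbr3 (1.16) and Smad2 (1.15) differed by 1 or more on the log2 scale. Tgfb3 did not, with a day difference of 0.003. The share of all genes with such a day difference was not computed, so these values do not set the members apart. Over 13152 bright probes, arrays of the same group from different scan days differed with an SD of 1.16 to 1.27. In the 4 members with a pair of probes, the probe nearer to the 3′ end had the higher day difference each time. For Smad3 it was 1.65 against -0.12 at the 5′ probe, for Tgfb2 2.00 against 0.53, for Tgfbr1 0.89 against 0.12, and for Tgfbr2 -0.30 against -1.59. Over 722 other transcripts with probes at least 2000 bases apart the 3′ probe was higher in this respect in 61.4%, with a median of 0.41.

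**Figure D4:**
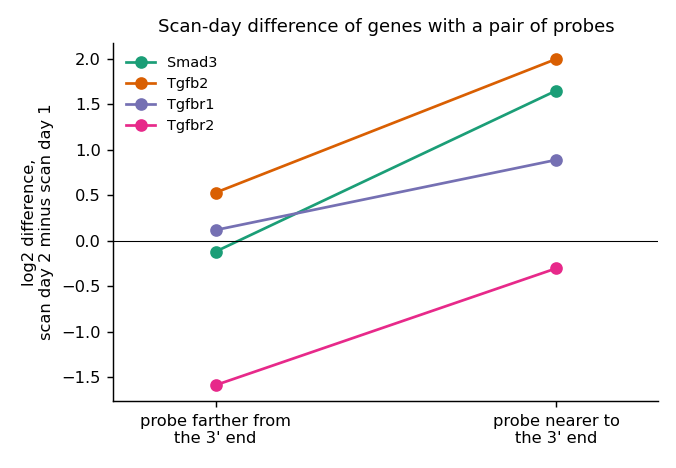
Log2 difference between scan days (day 2 minus day 1, from the fit with group and scan day) of the 4 members with a pair of probes, for the probe farther from and the probe nearer to the 3′ end. Every line runs upward, from -0.12 to 1.65 for Smad3 and from 0.53 to 2.00 for Tgfb2.

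The genes around the members were read from lists of the pathway. Over all tested genes, 4.6% passed higher and 5.54% lower with scan day. Those shares were 1.47% and 1.6% with the averaged pair, and 0.697% and 0.701% with no scan day term. They stand beside the counts of every list below. Of the 18 tested SMAD2/3 target genes, 12 passed higher and 1 lower with scan day, 6 higher with untreated 1 and 2 averaged, and 4 higher with no scan day term. These counts include Ldlrad4, described below, which entered the test through the TGFb arrays. The median difference of the target genes was 1.16, against 0.04 over all tested genes and -0.25 over the 10 members. With no scan day term the medians were 1.26 for the targets, 0.05 for all tested genes and -0.01 for the members. Ccn2, which encodes connective tissue growth factor, gave 4.97, 5.11 and 5.04 in TGFb 1, 2 and 3, against 1.90, 1.89 and 2.15 in untreated 1, 2 and 3. The TGFb arrays were far above the untreated ones, by 3.00 ± 0.14 (log2, SE; limma adjusted p 0.00159), and it passed with the averaged pair (limma adjusted p 0.0182) and with no scan day term (limma adjusted p 0.0111). Lox, the collagen cross-linking enzyme, was higher by 2.95 (limma adjusted p 0.00188) and also passed in both other fits (limma adjusted p 0.0182 with the averaged pair and 0.0250 with no scan day term). The member of this list called lower was Cdkn1a, the cell cycle inhibitor p21, at -0.94 (limma adjusted p 0.0383), and it passed in neither of the other fits (limma adjusted p 0.148 with the averaged pair and 0.207 with no scan day term).

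Of the 19 tested SMAD partners and feedback genes, 5 passed higher and 1 lower with scan day, 2 higher with the averaged pair and 1 higher with no scan day term, and their median difference was 0.22. Pmepa1, which encodes a membrane protein that keeps SMAD2 and SMAD3 from the receptor, was higher by 2.34 ± 0.17 (log2, SE; limma adjusted p 0.00279). It passed with the averaged pair (limma adjusted p 0.0215) and not with no scan day term (limma adjusted p 0.104). Ldlrad4, a relative of Pmepa1, was higher by 3.76 ± 0.32 (limma adjusted p 0.00395) and passed in both other fits (limma adjusted p 0.0236 and 0.0149). It was well above background on all 3 TGFb arrays and on 1 untreated array, so it entered the test through the TGFb arrays and the size of its difference is uncertain. Ldlrad4 is the 1 gene of this list that passed with no scan day term, and each count of genes passing higher here includes it. Skil, which encodes the SMAD co-repressor SnoN, was higher by 1.20 (limma adjusted p 0.0122) but did not pass with the averaged pair (limma adjusted p 0.0729) or with no scan day term (limma adjusted p 0.466). The others, which passed with scan day alone, were Tgif1 at 1.07, the inhibitory SMAD gene Smad7 at 1.61, and Nedd4l, a ubiquitin ligase for the SMADs, at -0.90. Pmepa1, Ldlrad4, Skil and Smad7 also belong to the target list.

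Of the 18 tested genes of latency and activation, 4 passed higher and 1 lower with scan day, 4 higher with the averaged pair and 3 higher with no scan day term, and their median difference was 0.45. Itgb3, an integrin subunit that with the αv subunit can bind latent TGFb, was higher by 2.83 ± 0.16 (log2, SE; limma adjusted p 0.00188). It passed with the averaged pair (limma adjusted p 0.0182) and missed the threshold with no scan day term (limma adjusted p 0.0895). Ltbp2, a matrix gene of the family named for latent TGFb binding, was higher by 3.55 ± 0.20 (limma adjusted p 0.00188). It also belongs to the target list. Thbs1, thrombospondin 1, which can activate latent TGFb, was higher by 3.20 ± 0.22 (limma adjusted p 0.0026). Lrrc32, which encodes GARP, an anchor for latent TGFb on the cell surface, was higher by 3.104. Ltbp2, Thbs1 and Lrrc32 passed in all 3 fits. Itgb6, whose integrin αvβ6 activates latent TGFb on epithelial cells, was lower, at -2.39, with scan day and missed the threshold with the averaged pair (limma adjusted p 0.0800) and with no scan day term (limma adjusted p 0.0610).

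Of the 14 other tested family receptors and SMADs, 0 passed higher and 1 lower with scan day, against 4.6% and 5.54% of all genes. In either of the other fits 0 of the 14 passed. Their median difference was -0.31. Amhr2, the type II receptor for anti-Müllerian hormone, was lower, at -1.63 ± 0.22 (log2, SE; limma adjusted p 0.0126). Tdgf1, which encodes the Nodal co-receptor Cripto, differed by 0.66 and Acvr2a, an activin type II receptor, by -0.95 (limma adjusted p 0.0709 and 0.0907). Cdkn1a, Tgif1, Smad7, Nedd4l, Lrrc32 and Itgb6 were named after their values were seen, because few genes of their lists passed in that direction.

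Of the markers of other cell types, 0 of 6 tested macrophage genes passed, 2 of 9 fibroblast genes passed lower and 0 higher, and of 8 pericyte genes 1 passed higher and 2 lower, all with scan day. With the averaged pair and with no scan day term 0 macrophage and 0 fibroblast genes passed, and 1 pericyte gene did. It was Abcc9, a potassium channel subunit gene, lower in TGFb cells at -2.64. Its limma adjusted p was 0.00275 with scan day, 0.0203 with the averaged pair and 0.0149 with no scan day term. The pericyte gene that passed higher was Rgs5, at 1.57 (limma adjusted p 0.0168). Rgs5 did not pass with the averaged pair (limma adjusted p 0.0771) or with no scan day term (limma adjusted p 0.248). Abcc9 and Rgs5 were named after their values were seen. The other pericyte gene that passed lower was Des, which is also on the myoblast list. The part of such cells in the members' differences was not tested. The genes most like Smad3 over the 6 arrays were Ubap2, Armc2 and Creld2, each with a Pearson r of 0.998 between log2 levels. These points share the scan days, which also set apart the levels of Smad3.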

How the data were processed

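The authors deposited the scanner output of each array as spot intensities, which Agilent Feature Extraction 10.7.3.1 had corrected for background and spatial trends, per the file headers. The authors also deposited a table of normalized log2 values of the 6 arrays, used as an alternative. Its normalization is not stated in the labels or headers.

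Control spots and outlier spots (176 to 365 per array) were left out. The log2 processed intensity was taken relative to the 75th percentile of each array, and the spots of each probe were averaged. Testing took probes that stood well above background on 3 or more arrays, and the probe with the highest mean over the 6 arrays represented its gene. Gene names were updated through a RefSeq table for the 26300 of 55681 probes that it held, which changed 2839 names and none of the members'. Limma 3.58.1 in R 4.3.3 (lmFit, eBayes) was fitted across all genes with group and scan day as terms, because the scan days hold the groups in unequal numbers. The fits were tested on simulated data.

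The members, gene lists and tests were chosen with earlier results of these data known. Named genes are every member, the 3 genes with the smallest adjusted p of each pathway list, fixed markers, and the 3 genes most like the member with the smallest adjusted p. Deviations from the group means correlated at 0.81, -0.72 and 0.69 for replicate numbers 1, 2 and 3. Numbers 1 and 3 shared a scan day across the groups and number 2 did not. These correlations therefore cannot show whether the replicate numbers paired the samples. In the scanner file names TGFb 2, untreated 1 and untreated 2 all carry the number 2. A pairing by the file name numbers was not tested. Probe coordinates are those of the arrays (mm9), and promoters those of RefSeq (GRCm38.p6). Transcript annotation of mm9 was not used here, so exons and UTRs are not given.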

Additional observations from a re-analysis of the deposited data

How the results depend on the processing

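Of 10 members, 3 passed with scan day as a term. The count was 0 with no scan day term, 0 with untreated 1 and 2 averaged (with scan day, an alternative added after the data were seen, or without), 0 with no filter on dim probes, and 0 to 5 with single arrays left out. With the replicate number as a block it was 0, with or without scan day, and those counts came to 2 and 0 over all genes and 0 and 0 over the pathway lists. At an unadjusted p under 0.05 limma gave 2530 genes with no scan day term, 2955 with the replicate block and 3610 with the block and scan day. Over all genes the count was 2227, against 307 with no scan day term, 674 and 0 with untreated 1 and 2 averaged with and without scan day, 3345 from the authors' deposited table, 1302 with no filter, and 329 to 3320 with single arrays left out. For the pathway lists it was 20, against 6 with no scan day term, 9 and 0 with the averaged pair, and 7 to 19 with single arrays left out. The cause of these changes was not tested.

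Scaling to the array median moved the median difference of all genes to -0.15, and 31.4% of calls were then higher, against 45.4%. Tgfb3 passed with slide as a random block (limma adjusted p 0.0483), normexp (0.0296), the authors' deposited table (0.0362), the filter on all 6 arrays (0.0330) and genes as the mean of their probes (0.0482). It has 1 probe, so in the last pair its difference stayed at -0.63 and only the genes beside it changed. The filter left 18361 genes tested, and the mean of probes kept 21960 genes but changed the values of those with several probes. Normexp gave -0.38 for Tgfbr3 and -0.26 for Eng, neither passing. The sign of Tgfbr1 turned to 0.055 with no scan day term and with the replicate block. That of Smad2 turned to 0.32 with both, to 0.15 within day 1 and without untreated 3 (single arrays left out gave -0.27 to 0.15), to 0.0090 with quantile normalization and to 0.0037 in the authors' deposited table.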

Other observations

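Eng had the widest spread of the members' representing probes, with an SD of 1.51 over the 3 TGFb arrays and 1.65 over the 3 untreated arrays, against 0.08 and 0.03 for Tgfb3. Among transcripts other than the members' with probes less than 500 bases apart, the 3′ probe had the higher scan-day difference in 65.1% of 1003, and for those from 500 to below 1000 and from 1000 to below 2000 bases apart in 61.6% of 557 and 61.3% of 692. The comparison of probe positions was added after the data were seen. On the arrays of untreated 1 and untreated 2, spots of 194 probes printed more than once differed within an array with an SD of 0.0634 and 0.0584, and single spots of those probes differed between the arrays with an SD of 0.107.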
